A study of Mus musculus with 12 samples.

Results

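The genes described here are the forkhead, T-box, Sox and Gata transcription factors of the mouse, followed across 4 cell populations sorted from the aorta and its surrounding fat. They were chosen by name alone: every symbol of the count table that reads Fox followed by a letter from a to s and a number, Tbx or Sox followed by a number, or Gata2 to Gata6. This gave 76 genes of the 36512 in the table, made up of 41 forkhead, 13 T-box, 17 Sox and 5 Gata genes. The tissue came from CD-1 wild type pups of both sexes at 3 days of age. Aortas with the attached perivascular fat were digested with collagenase and dispase, and FACS gave progenitor cells, intermediate cells, preadipocytes and smooth muscle cells, with 3 libraries of each and 12 in all. The labels give no transgene, treatment or deletion for any group and do not name the sort markers. The labels do not say whether the 3 libraries of a population came from separate litters or sorts, so the p-values measure only the spread between these libraries.

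The 4 families are defined by the protein domain with which each binds DNA. Forkhead proteins carry a winged helix, T-box proteins the domain first known from Brachyury, Sox proteins an HMG box that bends DNA, and Gata proteins zinc fingers that read a GATA word. Many of them act in the embryo to set apart the tissues that build vessel wall and fat: Foxc1, Foxc2 and Foxs1 in mesenchyme around vessels, Tbx18 and Gata4 in the epicardium and nearby mesothelium, Sox10 and Foxd3 in neural crest, Tbx20 in the heart, Gata6 in vascular smooth muscle, and Gata2 and Gata3 as brakes on fat cell formation. Foxo1 and Foxo3 answer to insulin signalling, and Foxm1 drives genes of cell division.

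Each library held 11701825 to 17123109 counts. Replicates correlated with r between 0.963 and 0.986 on log2 values. Levels below are CPM, a gene's counts scaled to a common library total, after TMM scaling, a factor per library that ranged from 0.823 to 1.199. Before TMM scaling, 3 counts stood for 0.175 to 0.256 CPM. The population labels were first set against marker genes. The 8 smooth muscle markers summed to 6870 to 7530 CPM in the smooth muscle libraries against at most 1190 in any other library, although Tagln, an actin-binding protein of smooth muscle, was at only 7.34, 9.18 and 11.04 CPM there. The 7 adipocyte markers summed to 4710 to 7570 CPM in preadipocytes, and 1840 to 1890 in progenitors. Fibroblast markers summed to 132000 to 143000 CPM in progenitors and 165000 to 183000 in intermediate cells, against 10600 to 22800 in the other 2 populations.

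Markers of cells that none of the labels name were also present, and they moved with several of the results. The 9 sympathetic neuron markers summed to 695 to 940 CPM in the smooth muscle libraries, 88.5 to 142 in preadipocytes, 13.7 to 26.4 in intermediate cells and 7.83 to 9.56 in progenitors, and 9 of 9 were higher in smooth muscle than in each other population. The 10 mesothelial markers summed to 1310 to 1800 CPM in smooth muscle and at most 217 elsewhere, with 10 of 10 higher in smooth muscle than in each other population. Of the 10 Schwann cell markers, 7 were higher and 2 lower in smooth muscle than in progenitors, against 30.5% and 23.6% of all genes. Against intermediate cells 7 were higher and 2 lower there (15.7% and 13.1%), and against preadipocytes 8 and 0 (40.7% and 25.9%). Against progenitors, intermediate cells had 6 higher and 1 lower (14.1% and 13.4%), and preadipocytes 5 and 2 (25.1% and 25.9%). The 10 Schwann cell markers summed to 540 to 624 CPM in smooth muscle, below the 887 to 932 of progenitors. Pmp22, a myelin protein also made by fibroblasts, was most of that sum, with 869.5, 859 and 898 CPM in the progenitor libraries. Preadipocyte library 3 stood apart through red blood cell RNA: the markers summed to 1010 to 17200 CPM over the preadipocytes, and Hba-a1, a globin, was at 476, 644 and 7351 CPM in libraries 1, 2 and 3. Preadipocyte library 1 alone had Col2a1, a cartilage collagen, at 155.6 CPM, against 5.31 and 2.5 in the other 2.

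Of the 76 genes, 57 had enough counts to be tested, and 19 did not, among them Foxa1, Foxa2, Foxb1, Foxl2, Foxp3, Sox3, Sox15 and Tbx10. None of these 19 passed 23 counts in any library. The 57 comprised 26 forkhead, 12 T-box, 14 Sox and 5 Gata genes. Because a gene could pass this filter through a single population where it was high, the counts below describe the 57 and not all 76. In the test over all 4 populations 48 of the 57 differed (edgeR quasi-likelihood F test, Benjamini-Hochberg adjusted p under 0.05), at a background of 79.8% of the 21285 genes tested. The share of members that differed was thus close to that of genes at large.

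Where the members were highest was less even. By the mean, 35 of the 57 (61.4%) were highest in smooth muscle cells and 18 (31.6%) in intermediate cells, while 2 (3.51%) were highest in progenitors and 2 (3.51%) in preadipocytes. Over all genes tested the shares were 35.1% in smooth muscle, 16.7% in intermediate cells, 18.5% in progenitors and 29.7% in preadipocytes. By family, forkhead genes peaked in intermediate cells (14 of 26) or smooth muscle (11), T-box genes in smooth muscle (10 of 12), Sox genes mostly in smooth muscle (9 of 14), and all 5 Gata genes in smooth muscle. Summed over the 76 genes, the level was 958.5 CPM in progenitors, 1449 in intermediate cells, 658.9 in preadipocytes and 1569 in smooth muscle.

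Pair by pair, 25 members were higher and 2 lower in intermediate cells than in progenitors, at a background of 27.6% of all genes called (14.1% higher and 13.4% lower), and the median log2 fold change was 0.72 for members and 0.05 for all genes. Without progenitor library 1 the 2 lower became 0. In smooth muscle against progenitors 37 were higher and 2 lower, at a background of 54.1% (30.5% and 23.6%), with medians of 0.98 and 0.09. The 2 lower became 5 without progenitor library 2, 8 without any 1 of the intermediate libraries and 9 with no low-count filter. Preadipocytes against progenitors had 14 higher and 13 lower at a background of 50.9% (25.1% and 25.9%), and medians of -0.22 and 0.04. Of these, forkhead genes gave 3 higher and 8 lower, T-box genes 3 and 2, Sox genes 6 and 2 and Gata genes 2 and 1, and with no low-count filter the members gave 12 higher and 17 lower. Against intermediate cells, preadipocytes had 8 members higher and 26 lower at a background of 57.1% (26.0% and 31.1%), with medians of -0.73 and -0.24, and the 8 became 4 without preadipocyte library 2.

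Smooth muscle against preadipocytes gave 37 members higher and 1 lower at a background of 66.6% (40.7% and 25.9%), with medians of 1.66 and 0.35. The 1 lower became 2 with RLE factors or DESeq2 and 4 with no low-count filter, without progenitor library 2 or without any 1 of the intermediate libraries. It became 2 without preadipocyte library 1 or 3 or smooth muscle library 1 or 2. Smooth muscle against intermediate cells gave 17 higher and 11 lower at a background of 28.8% (15.7% and 13.1%), with medians of 0.35 and 0.10, and this split became 32 higher and 5 lower when libraries were scaled by their totals alone, a scaling that moved the median of all genes by 0.48. By family it held 2 higher and 7 lower forkhead genes, 5 and 1 T-box genes, 6 and 3 Sox genes and 4 and 0 Gata genes, and the 11 lower became 7 without smooth muscle library 1. Without preadipocyte library 3, preadipocytes against progenitors had 16 members higher and 13 lower, and smooth muscle against preadipocytes 38 higher and 2 lower. The comparisons share populations and are not independent of each other. In bulk RNA of sorted cells, fewer cells that express a gene and less RNA of it per cell cannot be told apart.

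**Figure D1:**
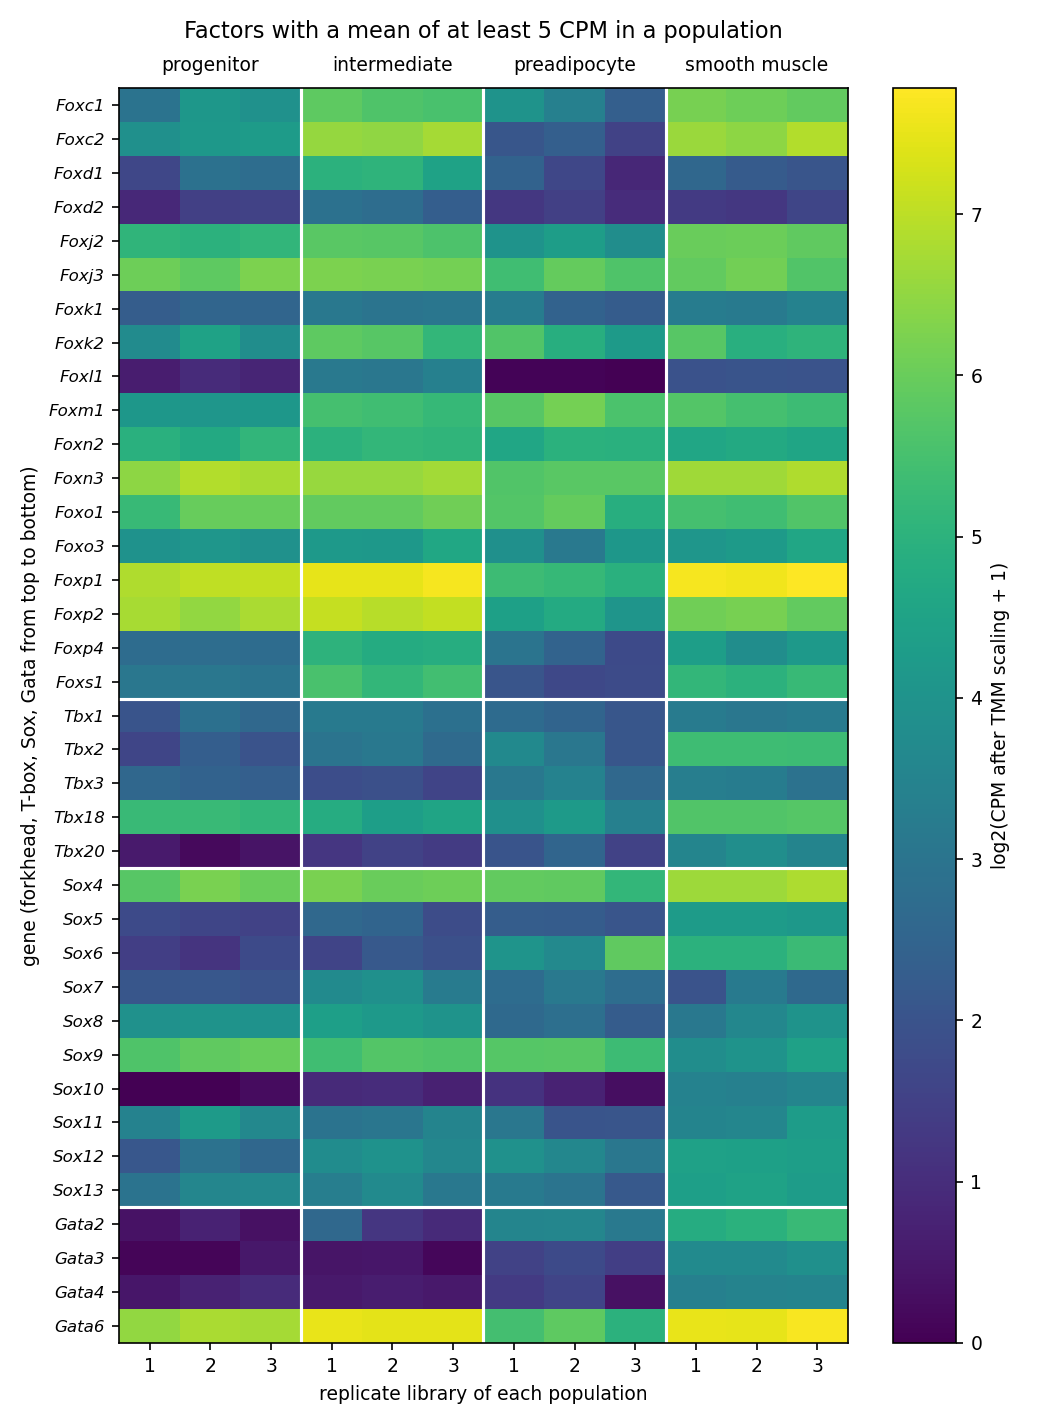
Level of the 37 members with a mean of at least 5 CPM in some population, as log2(CPM + 1), with a row per gene grouped by family and a column per library grouped by population. Brighter cells are higher: Gata2, Gata3, Gata4, Sox10 and Tbx20 are brightest in the 3 smooth muscle libraries, Foxd1 and Foxl1 in the 3 intermediate libraries, and Sox9 is darkest in smooth muscle.

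The members described are those with a mean of at least 5 CPM in some population, which 37 of the 57 reached. Many are given with the value in every library, and others with a range, with some of the populations or with fold changes alone. The 4 promoters that follow belong to members of each of the main patterns: Foxc1, high in intermediate and smooth muscle cells, Foxd1, high in intermediate cells, and Tbx20 and Gata3, high in smooth muscle. Each run is the 250 bases before the RefSeq transcription start (GRCm38.p6), written 5′ to 3′ on the gene's own strand, and the capitals mark words found by an exact search of both strands. The words searched for the families were GTAAACA for forkhead proteins, AACAAT for Sox proteins, GGTGTGA for T-box proteins and AGATAA for Gata proteins. The general promoter words were TATAAA, the box named CCAAT after its letters, and GGGCGG, known as the GC box.
Foxc1, chr13:31806396-31806645, plus strand: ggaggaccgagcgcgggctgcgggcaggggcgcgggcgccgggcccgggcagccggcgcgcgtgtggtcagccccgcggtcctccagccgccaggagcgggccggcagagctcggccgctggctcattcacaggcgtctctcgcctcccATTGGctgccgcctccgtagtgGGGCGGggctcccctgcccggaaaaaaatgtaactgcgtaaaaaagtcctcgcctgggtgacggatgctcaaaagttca
Foxd1, chr13:98353995-98354244, plus strand: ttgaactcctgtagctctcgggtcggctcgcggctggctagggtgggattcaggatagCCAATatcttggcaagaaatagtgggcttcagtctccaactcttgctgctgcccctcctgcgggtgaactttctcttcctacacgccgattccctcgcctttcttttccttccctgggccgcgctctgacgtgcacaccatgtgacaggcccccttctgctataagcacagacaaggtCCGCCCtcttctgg
Tbx20, chr9:24774304-24774553, minus strand: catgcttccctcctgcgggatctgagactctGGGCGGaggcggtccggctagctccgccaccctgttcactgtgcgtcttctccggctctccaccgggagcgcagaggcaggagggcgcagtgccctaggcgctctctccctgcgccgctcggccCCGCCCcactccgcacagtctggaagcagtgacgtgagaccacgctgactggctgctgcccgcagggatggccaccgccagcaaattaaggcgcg
Gata3, chr2:9878601-9878850, minus strand: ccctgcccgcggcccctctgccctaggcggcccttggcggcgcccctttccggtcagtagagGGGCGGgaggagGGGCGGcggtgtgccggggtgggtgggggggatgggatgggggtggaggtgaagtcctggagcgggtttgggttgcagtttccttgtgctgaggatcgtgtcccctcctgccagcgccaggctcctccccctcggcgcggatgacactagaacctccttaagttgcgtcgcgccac

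The Foxc1 window holds a CCAAT box on the opposite strand and a GC box on the given one, 101 and 79 bases before the start. In Foxd1 the CCAAT box lies 192 bases before the start and a GC box, on the opposite strand, 14 before it. Tbx20 has 2 GC boxes, 1 on each strand, and Gata3 has 2 on its own strand, 188 and 176 bases before the start, and this start lies 11434 bases inside the GENCODE gene. None of the 4 windows holds the forkhead, Sox, T-box or Gata word, which says only that these letters are not there. RefSeq had 62 windows for 48 members. A GC box was in 38 of the 62, against 32.7% of the 32851 windows of all genes, and a CCAAT box in 24, against 33.8%. The forkhead word was in 2, the Sox word in 3, the T-box word in 1 and the Gata word in 5, against 3.17%, 9.42%, 3.33% and 9.99% of all windows.

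Among forkhead genes, a set of mesenchymal factors was high in intermediate and smooth muscle cells together and low in progenitors and preadipocytes. Foxc1, needed for vessel and eye development, lies on chromosome 13 at 31806633 to 31812476 as 1 exon (mm10, as all gene coordinates here). It was at 6.82, 16.5 and 14.2 CPM in the progenitor libraries, 56.8, 49.1 and 46.2 in intermediate cells, 14.9, 9.54 and 4.11 in preadipocytes and 71.7, 66.6 and 58.9 in smooth muscle. Every intermediate and smooth muscle library lay above every progenitor and preadipocyte library. Preadipocytes differed from intermediate cells by a log2 fold change of -2.41 ± 0.35 (adjusted p = 2.4e-05), where ± is the standard error, and smooth muscle exceeded preadipocytes with a log2 fold change of 2.79 ± 0.35 (adjusted p = 5.51e-06).

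Foxc2, its close relative, acts in lymphatic vessels and mesenchyme and is a single exon on chromosome 8 at 121116171 to 121118895. Its levels were 13.96, 16.9 and 18.2 CPM in progenitors, 93.6, 89.6 and 106 in intermediate cells, 3.23, 4.11 and 1.89 in preadipocytes and 96.6, 86.4 and 118 in smooth muscle. The intermediate and smooth muscle libraries overlapped, and both lay several times above progenitors and far above preadipocytes. Preadipocytes were below intermediate cells by a log2 fold change of -4.97 ± 0.23 (adjusted p = 1.76e-10), and smooth muscle exceeded progenitors with a log2 fold change of 2.62 ± 0.20 (adjusted p = 4.94e-08). Per kilobase of exon, Foxc2 was the highest described member in smooth muscle, at 36.8 CPM per kb, and in intermediate cells, at 35.3.

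Foxs1, a forkhead gene of pericytes and sensory neurons, lies on chromosome 2 (152931898 to 152933208, 1 exon) and was also high in intermediate and smooth muscle cells. It was at 7.44, 7.51 and 6.96 CPM in progenitors, 45.5, 34.4 and 42.1 in intermediate cells, 3.12, 2.23 and 2.44 in preadipocytes and 34.8, 31.3 and 36.6 in smooth muscle. Preadipocytes were the lowest group without overlap, and intermediate and smooth muscle libraries overlapped. The difference of preadipocytes from intermediate cells was a log2 fold change of -3.96 ± 0.18 (adjusted p = 1.35e-10), and intermediate cells exceeded progenitors with a log2 fold change of 2.48 ± 0.17 (adjusted p = 5.51e-08).

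Foxd1, Foxd2 and Foxl1 were highest in intermediate cells without overlap, although Foxl1 was also called higher in smooth muscle than in progenitors and preadipocytes. Foxd1, a factor of kidney stroma and pericyte progenitors, is a single exon on chromosome 13 at 98354242 to 98359305. It was at 30.96, 32.6 and 21.2 CPM in intermediate cells, against 2.17, 6.42 and 5.89 in progenitors, 4.47, 2.17 and 0.833 in preadipocytes and 5.06, 3.67 and 3.16 in smooth muscle. The highest library of another population was at 6.42 CPM. Intermediate cells were above progenitors with a log2 fold change of 2.54 ± 0.44 (adjusted p = 0.000618), and smooth muscle was below intermediate cells with a log2 fold change of -2.83 ± 0.44 (adjusted p = 0.000141).

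Foxd2, of somite and kidney mesenchyme, followed at lower levels of 6.41, 5.92 and 3.99 CPM in intermediate cells. The other 9 libraries lay between 0.853 and 2.11. Its difference between intermediate cells and progenitors was a log2 fold change of 1.84 ± 0.34 (adjusted p = 0.00101), and between smooth muscle and intermediate cells a log2 fold change of -1.70 ± 0.33 (adjusted p = 0.000991).

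Foxl1, of gut mesenchyme, was at 7.83, 7.50 and 9.51 CPM in intermediate cells, 2.92, 3.04 and 2.95 in smooth muscle and 0.543, 0.956 and 0.736 in progenitors. In preadipocytes it was nearly absent from the counts, with 2 counts over the 3 libraries against 293 in intermediate cells. That is a ratio of 218.5 after scaling, with a 95% counting interval of 59.95 to 1813. The 4 groups did not overlap, and intermediate cells exceeded progenitors with a log2 fold change of 3.45 ± 0.30 (adjusted p = 8.78e-07).

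Some of these genes are neighbours in the genome. Foxf1, Foxc2 and Foxl1 lie within 43.55 kb of each other on chromosome 8, where Foxc2 starts 11.77 kb from Foxl1 and 31.79 kb from Foxf1. Foxf1, a factor of lung and gut mesenchyme, was at 3.64, 3.21 and 3.34 CPM in progenitors, 3.65, 3.45 and 3.35 in intermediate cells, 1.19, 0.785 and 0.833 in preadipocytes and 3.85, 4.81 and 5.62 in smooth muscle. It was lower in preadipocytes, as its neighbours were, by a log2 fold change of -1.85 ± 0.26 (adjusted p = 2.37e-05) against progenitors, but its intermediate and progenitor libraries overlapped with a log2 fold change of 0.04 ± 0.24 (adjusted p = 0.925). On chromosome 13 Foxc1 lies 180.8 kb from Foxf2 and 250.5 kb from Foxq1. Foxf2 was not called by the F test (adjusted p = 0.158), and Foxq1 was highest in smooth muscle at 1.92, 2.09 and 4.29 CPM against at most 0.87 in any other library. Of its 4.843 kb of exon, 3200 bases are shared with a gene on the opposite strand, A530084C06Rik.

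**Figure D2:**
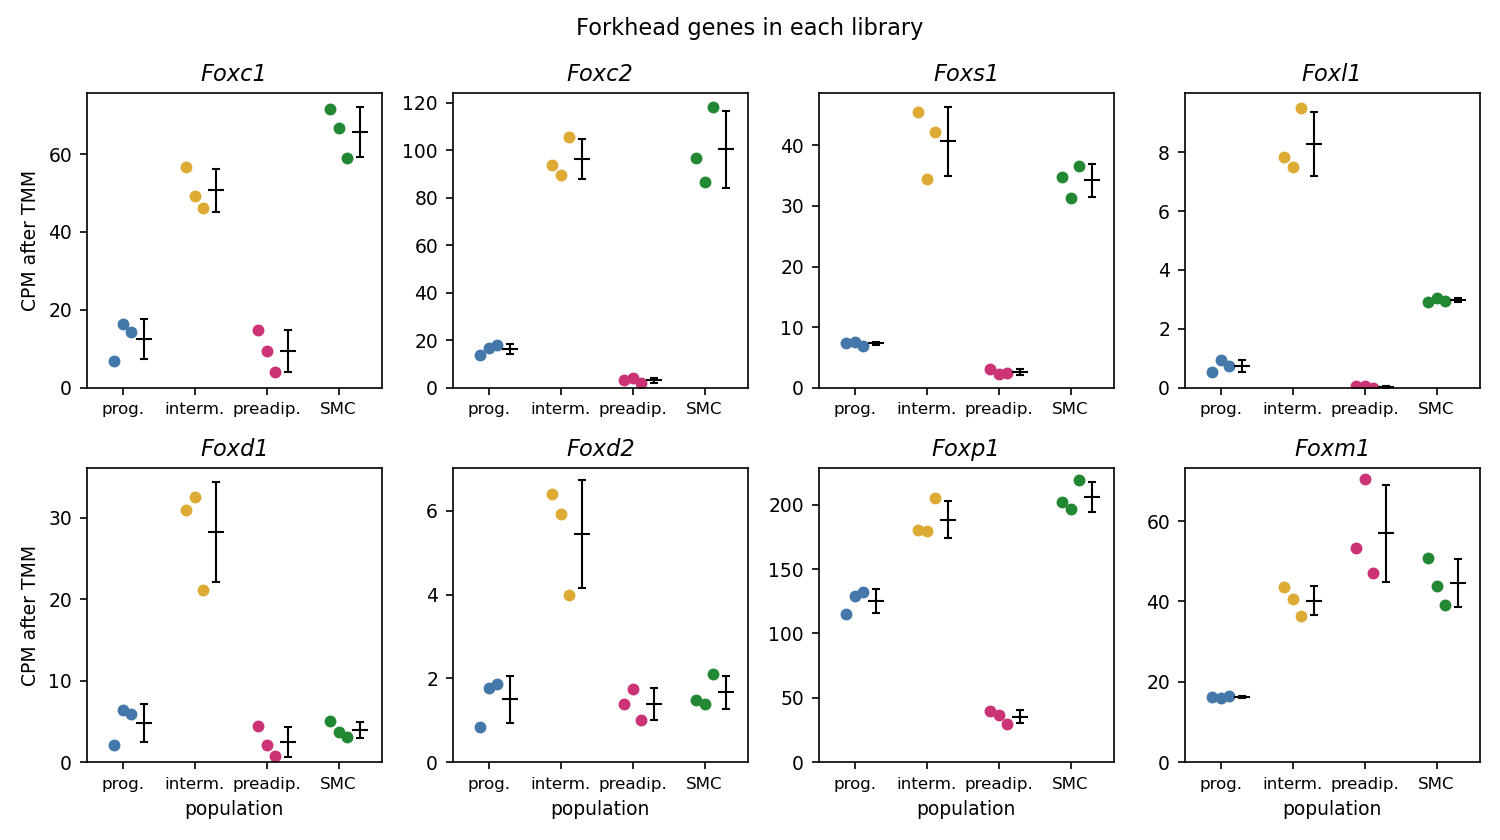
Level of 8 forkhead genes in every library, in CPM after TMM scaling on a linear axis from 0, with a point per library and the mean ± SD (n = 3) beside the points. Foxc1, Foxc2 and Foxs1 are high in both intermediate and smooth muscle cells (SMC), Foxd1, Foxd2 and Foxl1 are highest in intermediate cells, Foxp1 is lowest in preadipocytes, and Foxm1 is lowest in progenitors.

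Of the Foxp genes, repressors that work as pairs with each other, Foxp1 and Foxp2 were lowest in preadipocytes. Foxp1 was at 115, 129 and 132 CPM in progenitors, 180.4, 179.5 and 205 in intermediate cells, 39.7, 36.5 and 29.8 in preadipocytes and 202, 196 and 219 in smooth muscle. Preadipocytes lay below every other library, with a log2 fold change of -1.83 ± 0.13 (adjusted p = 1.78e-08) against progenitors and a log2 fold change of -2.42 ± 0.13 (adjusted p = 8.27e-10) against intermediate cells.

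Foxp2 was at 108, 91.6 and 109 CPM in progenitors, 134, 123 and 133 in intermediate cells, 20.6, 26.3 and 15.8 in preadipocytes and 66.8, 71.6 and 58.6 in smooth muscle. Unlike Foxp1 it was higher in progenitors than in smooth muscle, and no pair of groups overlapped. The difference of preadipocytes from intermediate cells was a log2 fold change of -2.64 ± 0.17 (adjusted p = 3.31e-09), and of smooth muscle from intermediate cells a log2 fold change of -0.98 ± 0.16 (adjusted p = 0.000197). Foxp4 was at 31.4, 26.6 and 27.5 CPM in intermediate cells, 19.7, 13.2 and 17.01 in smooth muscle, 5.66, 5.81 and 5.75 in progenitors and 6.95, 4.53 and 2.39 in preadipocytes. Intermediate cells were its highest group without overlap, and exceeded progenitors with a log2 fold change of 2.31 ± 0.28 (adjusted p = 2.24e-05).

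Foxm1, which switches on genes needed for mitosis, was the described forkhead gene highest in preadipocytes. It was at 16.4, 16.1 and 16.5 CPM in progenitors, 43.5, 40.6 and 36.3 in intermediate cells, 53.3, 70.5 and 47.2 in preadipocytes and 50.8, 43.8 and 39.02 in smooth muscle. All progenitor libraries lay below all others, while the smooth muscle and preadipocyte libraries overlapped. Preadipocytes exceeded progenitors with a log2 fold change of 1.80 ± 0.16 (adjusted p = 1.87e-07), and smooth muscle did so with a log2 fold change of 1.45 ± 0.16 (adjusted p = 2.81e-06). Of 12 cell division genes listed as its targets, 12 were higher in preadipocytes than in progenitors (median log2 fold change 2.04), against 25.1% of all genes, 6 were higher in smooth muscle than in progenitors (0.43), against 30.5%, and 4 in intermediate cells than in progenitors (0.36), against 14.1%. Birc5, a survivin that acts at the spindle, ranged from 186 to 245 CPM in preadipocytes and from 26.7 to 45.8 over the other libraries. Ccnb1, the mitotic cyclin B, ranged from 227 to 397 CPM in preadipocytes and from 55.2 to 82.6 elsewhere. Foxm1 shares 144 bases of exon with Tex52 on the same strand, so a few of its reads are uncertain.

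Among the Foxo factors, Foxo1 was not called by the F test (adjusted p = 0.242). Its libraries ranged from 36.98 to 62.3 CPM in progenitors, 59.1 to 66.96 in intermediate cells, 28.6 to 60.01 in preadipocytes and 40.8 to 49.8 in smooth muscle. Foxo3 ranged from 7.91 to 23.7 CPM over all libraries, also not called by the F test (adjusted p = 0.0798), and its 2 pairwise calls were each lost in 10 of the 12 fits that left out a library. Foxo4, at a mean of at most 1.82 CPM, and Foxo6, at most 4.51, were low. Of 19 genes listed as Foxo targets, 10 were lower and 0 higher in intermediate cells than in progenitors, at a background of 13.4% lower. In preadipocytes against progenitors 7 were higher and 5 lower, against 25.1% and 25.9% of all genes, so the lower count was near the background. In smooth muscle against progenitors 4 were higher and 8 lower, against 30.5% and 23.6%. Sod2, a mitochondrial superoxide dismutase, ranged from 416 to 617 CPM in preadipocytes, 147 to 159 in progenitors, 53.4 to 65.1 in intermediate cells and 64.5 to 67.1 in smooth muscle. Pdk4, a kinase that spares glucose, ranged from 114 to 185 CPM in preadipocytes and from 6.94 to 24.7 elsewhere.

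Foxj2, another broadly present forkhead gene, was at 32.9, 31.01 and 34.1 CPM in progenitors, 53.9, 53.02 and 48.2 in intermediate cells, 14.9, 19.2 and 13.1 in preadipocytes and 62.8, 64.1 and 57.4 in smooth muscle. Preadipocytes were its lowest group without overlap, with a log2 fold change of -1.72 ± 0.15 (adjusted p = 7.39e-08) against intermediate cells. Foxn3, a repressor linked to the cell cycle, was also lowest in preadipocytes, at 49.8, 54.03 and 53.95 CPM against 87.6 to 117 in the other libraries, with a log2 fold change of -0.99 ± 0.13 (adjusted p = 9.79e-06) against progenitors. Foxk2, a regulator of glycolysis and autophagy, was lowest in progenitors at 12.4, 21.6 and 13.2 CPM, and rose to 56.2, 52.8 and 34.4 in intermediate cells with a log2 fold change of 1.60 ± 0.34 (adjusted p = 0.00323). Its difference between preadipocytes and progenitors, a log2 fold change of 1.03 ± 0.34 (adjusted p = 0.0182), fell to 0.56 with an adjusted p of 0.144 without preadipocyte library 1, and also missed the threshold without progenitor library 1 or progenitor library 3. Foxj3, Foxk1 and Foxn2 had no called difference of as much as 1 on the log2 scale, and their levels ranged from 40.8 to 74.9, 3.78 to 9.98 and 23.1 to 34.2 CPM over the 12 libraries. Each of their calls was lost on leaving out 1 or another library.

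**Figure D3:**
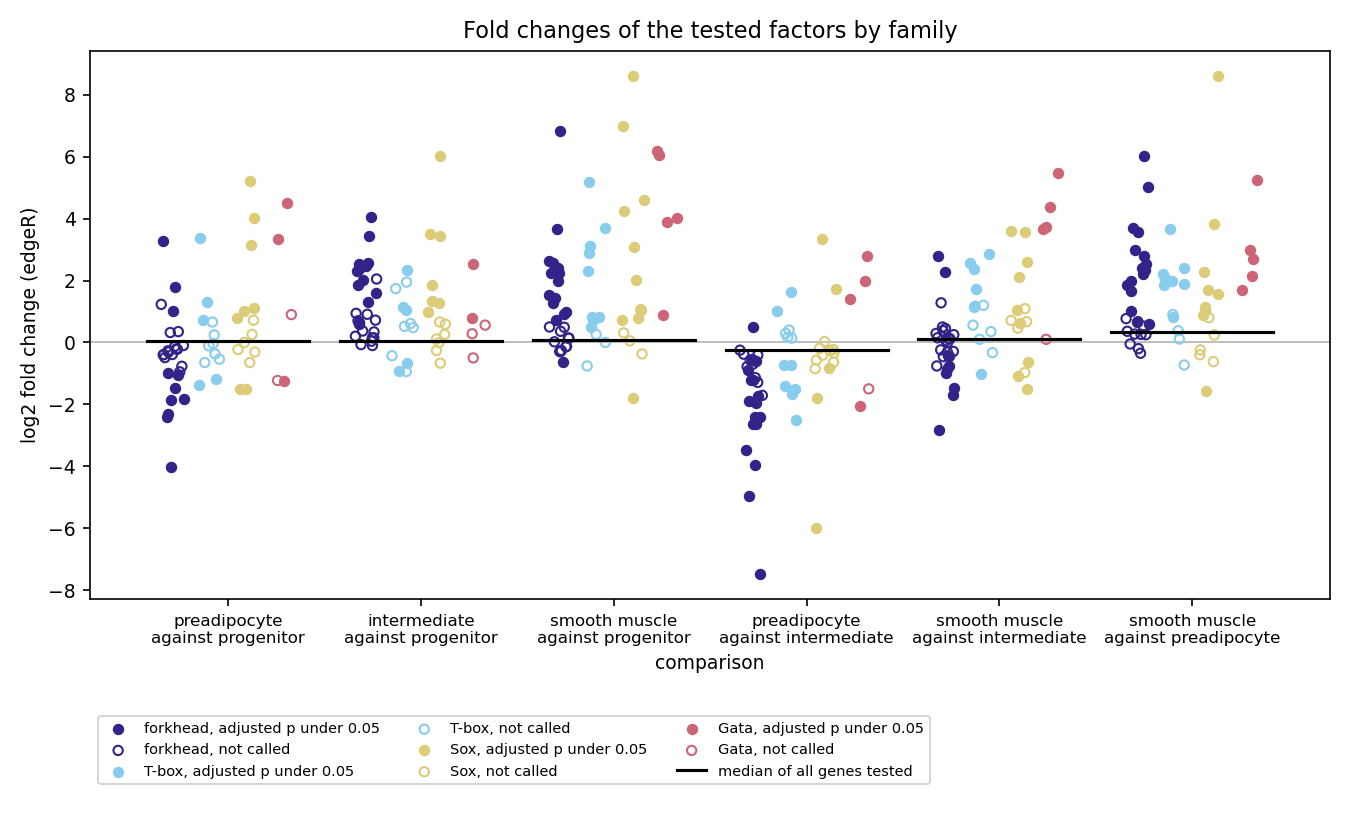
Log2 fold change of each tested member on the vertical axis in each of the 6 pairwise comparisons, coloured by family, where filled points passed an adjusted p under 0.05 and the black line is the median of all genes tested. Nearly all filled points lie above 0 for smooth muscle against progenitors (37 of 39) and against preadipocytes (37 of 38), while with no low-count filter the members called lower became 9 and 4; the fitted value of Sox2, with no counts in progenitors and preadipocytes, depends on a small added count.

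T-box genes as a family were highest in smooth muscle: 9 of the 12 tested were higher there than in progenitors and 0 lower, against 30.5% and 23.6% of all genes, and 8 were higher than in preadipocytes and 0 lower, against 40.7% and 25.9%. Tbx2, a repressor of heart chamber and limb identity, lies on chromosome 11 at 85832551 to 85841948 with 7 exon blocks. It was at 40.4, 39.9 and 39.1 CPM in smooth muscle, 11.8, 7.49 and 3.28 in preadipocytes, 7.03, 7.65 and 5.44 in intermediate cells and 2.09, 4.03 and 3.01 in progenitors. The smooth muscle libraries lay far above the rest, with a log2 fold change of 3.70 ± 0.36 (adjusted p = 6.11e-07) against progenitors and a log2 fold change of 2.57 ± 0.34 (adjusted p = 2.35e-05) against intermediate cells. Its neighbour Tbx4, 53.87 kb away and known from hindlimb and lung, was at 2.56, 2.28 and 1.62 CPM in smooth muscle and at most 0.845 elsewhere.

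Tbx20, whose promoter is shown above, is a cardiac T-box factor on chromosome 9 at 24718138 to 24774303. It was at 10.6, 13.5 and 10.5 CPM in smooth muscle, 3.07, 4.77 and 1.89 in preadipocytes, 1.33, 1.88 and 1.54 in intermediate cells and 0.465, 0.137 and 0.334 in progenitors. Smooth muscle was the highest group without overlap and progenitors the lowest. The difference between these groups was a log2 fold change of 5.20 ± 0.41 (adjusted p = 6.37e-08), which became 4.48 without progenitor library 2, and preadipocytes exceeded progenitors with a log2 fold change of 3.36 ± 0.42 (adjusted p = 6.71e-06).

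Tbx18, which marks the epicardium and mural cells, was at 50.4, 50.2 and 51.6 CPM in smooth muscle, 37.8, 37.6 and 33.6 in progenitors, 27.3, 19.6 and 22.1 in intermediate cells and 14.1, 18.1 and 9.45 in preadipocytes. The groups did not overlap. Smooth muscle exceeded preadipocytes with a log2 fold change of 1.88 ± 0.20 (adjusted p = 6.6e-07), while intermediate cells lay below progenitors with a log2 fold change of -0.66 ± 0.19 (adjusted p = 0.0197), so that Tbx18 and Tbx3 were the 2 members lower there. Without progenitor library 1 neither was called, and the Tbx18 value was -0.64 with an adjusted p of 0.0603. A transcript on the opposite strand shares 970 bases of exon with Tbx18, and no source used here says whether counting used strand. Overlaps of 98 to 674 bases with opposite strands were also present for Foxf1, Foxf2, Foxj2, Foxo1, Gata3, Gata5, Sox8 and Tbx3.

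Tbx3, a repressor close to Tbx2, was at 2.58, 2.70 and 1.99 CPM in intermediate cells, 5.12, 4.51 and 4.15 in progenitors, 7.60, 9.96 and 5.17 in preadipocytes and 9.05, 8.67 and 6.68 in smooth muscle. Intermediate cells were its lowest group without overlap. The difference from progenitors, a log2 fold change of -0.91 ± 0.27 (adjusted p = 0.0207), missed the threshold without progenitor library 1 (-0.84, adjusted p = 0.0712), and the difference of smooth muscle from intermediate cells was a log2 fold change of 1.74 ± 0.26 (adjusted p = 9.96e-05). Tbx5, 162 kb from Tbx3 and known from forelimb and heart, ranged from 0.539 to 2.48 CPM over the libraries and was not called by the F test (adjusted p = 0.067). Tbx1, of the pharyngeal arches, ranged from 3.1 to 8.34 CPM, and all of its calls were lost on leaving out 1 or another library. Tbx15, of dermis and fat precursors, was at 2.33, 2.80 and 1.81 CPM in progenitors and 1.02, 1.39 and 0.667 in preadipocytes, a log2 fold change of -1.17 ± 0.31 (adjusted p = 0.00484).

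The 5 Gata genes fell into 2 patterns. Gata6 was well above the even level in every population, and the other 4 were under 1 CPM in progenitors and far highest in smooth muscle. Gata6 was at 91.1, 111 and 106 CPM in progenitors, 183, 176 and 175 in intermediate cells, 42.6, 56.4 and 31.1 in preadipocytes and 182, 179.8 and 207 in smooth muscle. Intermediate and smooth muscle libraries overlapped at the top and preadipocytes were lowest. Smooth muscle exceeded preadipocytes with a log2 fold change of 2.14 ± 0.18 (adjusted p = 5.15e-08), and preadipocytes lay below progenitors with a log2 fold change of -1.24 ± 0.17 (adjusted p = 1.71e-05). Per kilobase it stood at 29.1 CPM in smooth muscle and 15.8 in progenitors, where it was the highest of the described members. A transcript on the opposite strand shares 93 bases of exon with it.

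Gata2, a factor of blood progenitors, endothelium and fat cell precursors, lies on chromosome 6 at 88193891 to 88207032. It was at 27.00, 30.5 and 37.3 CPM in smooth muscle, 10.6, 10.9 and 7.89 in preadipocytes, 5.25, 1.35 and 0.906 in intermediate cells and 0.31, 0.683 and 0.268 in progenitors. The groups did not overlap, and intermediate library 1 stood above its 2 fellows. Smooth muscle exceeded progenitors with a log2 fold change of 6.20 ± 0.53 (adjusted p = 1.48e-07), and preadipocytes did so with a log2 fold change of 4.51 ± 0.53 (adjusted p = 3.21e-06). Smooth muscle exceeded intermediate cells with a log2 fold change of 3.67 ± 0.43 (adjusted p = 7.86e-06), which became 4.63 without intermediate library 1 and 3.04 without intermediate library 3.

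Gata3, of sympathetic neurons, lymphocytes and fat cell precursors, is on chromosome 2 at 9857078 to 9890034. It was at 12.2, 12.3 and 14.1 CPM in smooth muscle, 1.89, 2.35 and 1.72 in preadipocytes, 0.356, 0.375 and 0.0906 in intermediate cells and 0.0775, 0.0683 and 0.401 in progenitors. Smooth muscle was far above and preadipocytes were next, without overlap with the remaining libraries, where the level was near that of a few counts. The difference of smooth muscle from intermediate cells was a log2 fold change of 5.49 ± 0.42 (adjusted p = 7.99e-08), or 4.89 without intermediate library 3. The difference of preadipocytes from progenitors was a log2 fold change of 3.35 ± 0.46 (adjusted p = 1.76e-05). It moved between 2.92 and 4.62 as single libraries were left out, with 4.62 without progenitor library 3.

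Gata4, of heart, epicardium and mesothelium, was at 9.48, 10.1 and 10.5 CPM in smooth muscle, 1.51, 2.05 and 0.278 in preadipocytes, 0.388, 0.683 and 0.936 in progenitors and 0.445, 0.525 and 0.453 in intermediate cells. Smooth muscle lay above every other library, with a log2 fold change of 3.88 ± 0.47 (adjusted p = 6.83e-06) against progenitors and a log2 fold change of 4.38 ± 0.51 (adjusted p = 6.39e-06) against intermediate cells. Gata5, of the same tissues, was at 3.99, 3.67 and 4.01 CPM in smooth muscle and at most 0.401 in any other library. The log2 fold change against progenitors was 4.02 ± 0.55 (adjusted p = 2.31e-05). This value became 3.46 without progenitor library 1, 4.65 without progenitor library 3 and 3.54 with no low-count filter.

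In the smooth muscle libraries these genes rose beside the sympathetic and mesothelial marker lists. Th, the rate-limiting enzyme of noradrenaline synthesis, was at 81.9, 115 and 113 CPM in smooth muscle, 14.3, 15.8 and 11.4 in preadipocytes, 3.20, 1.20 and 0.816 in intermediate cells and 0.31, 0.205 and 0.468 in progenitors. Th had the same order of populations as Gata2, Gata3 and Tbx20, with smooth muscle first and preadipocytes second. Upk3b, a mesothelial surface protein, was at 357, 390.2 and 504 CPM in smooth muscle and at most 55.9 in any other library, as Gata4, Gata5 and Wt1, a factor of the mesothelium at 31.5 to 45.5 CPM in smooth muscle, were highest there. The 6 tested cardiomyocyte markers summed to 67.5 to 79.0 CPM in smooth muscle, 74.4 to 187 in preadipocytes, 15.1 to 38.6 in intermediate cells and 8.90 to 13.9 in progenitors. Of these 5 were higher than in progenitors in both smooth muscle and preadipocytes, and 5 were lower in smooth muscle than in preadipocytes, while Tbx20 was higher there. The part of neurons, mesothelium or heart muscle in the levels of the Gata and T-box genes was not tested. Of 6 Gata partners, 0 were higher and 2 lower in smooth muscle than in progenitors, against 30.5% and 23.6% of all genes. Zfpm2, a cofactor that binds Gata4, ranged from 38.9 to 46.2 CPM in smooth muscle and 71.3 to 80.8 in progenitors. Gata1, the blood factor outside the name rule, was at 1.67, 3.32 and 106 CPM in the preadipocyte libraries and at most 1.28 elsewhere.

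**Figure D4:**
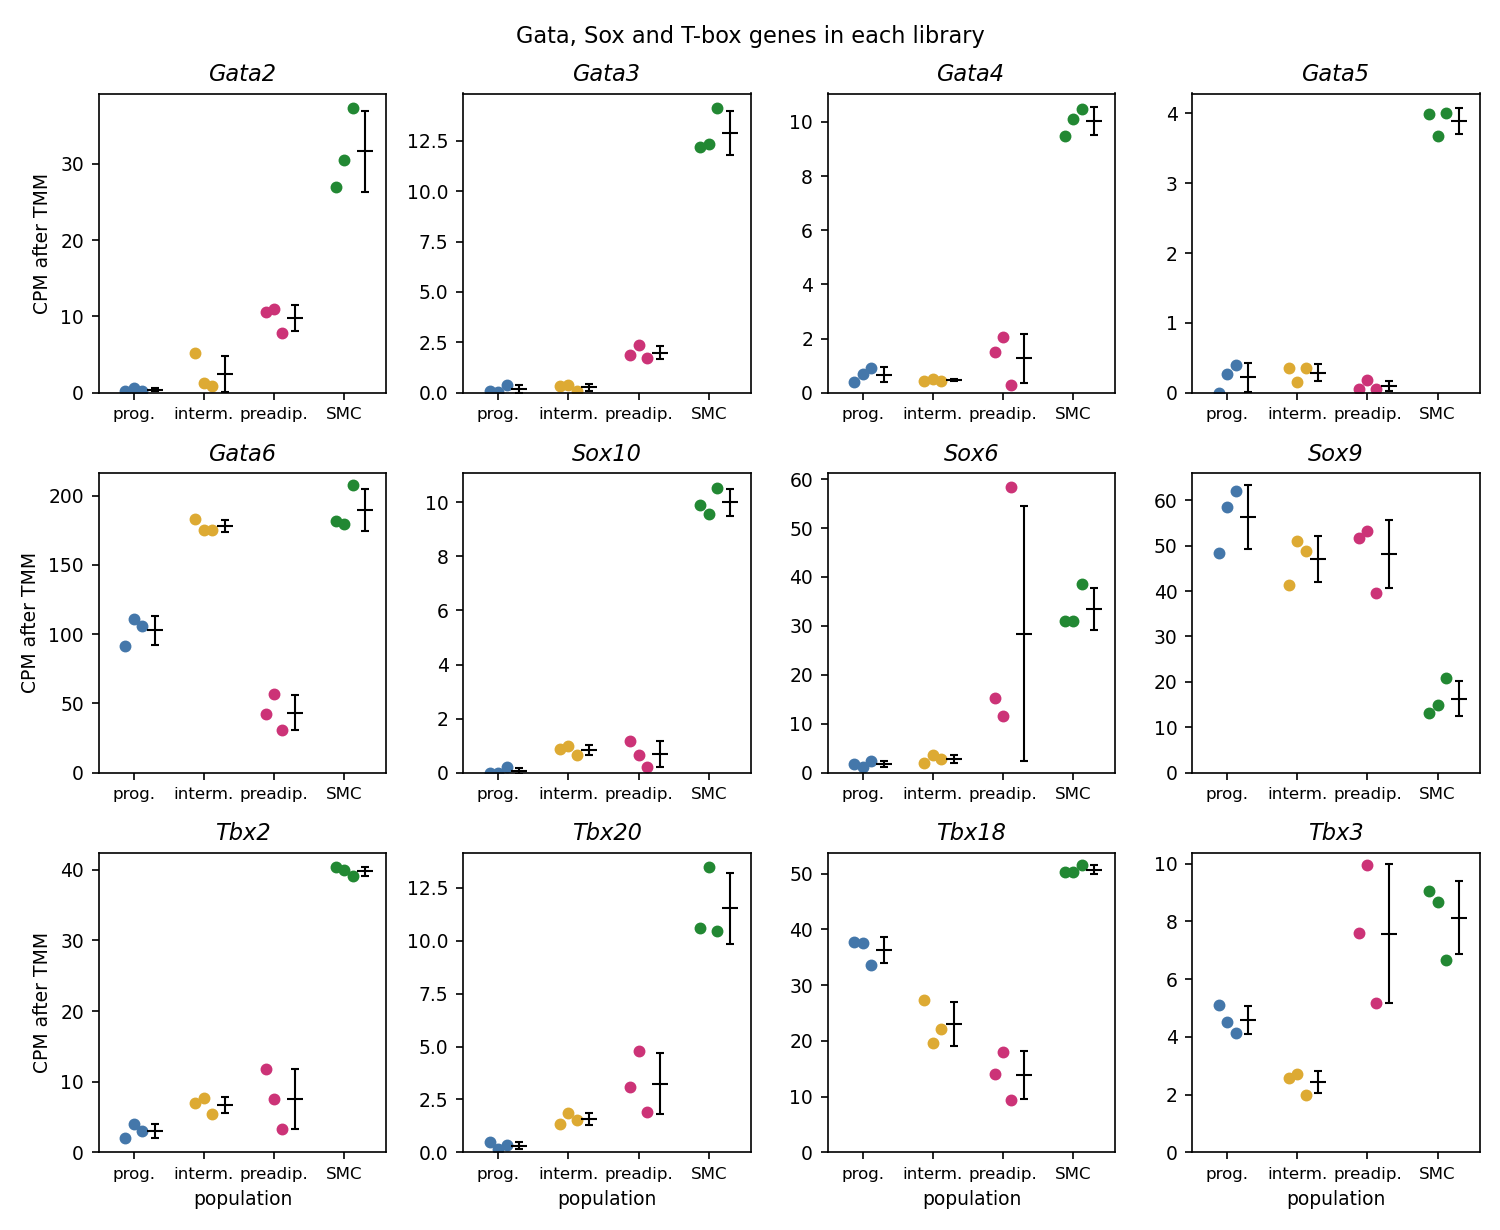
Level of 12 Gata, Sox and T-box genes in every library, in CPM after TMM scaling on a linear axis from 0, with a point per library and the mean ± SD (n = 3) beside the points. Gata2, Gata3, Gata4, Gata5, Sox10, Tbx2 and Tbx20 are highest in the 3 smooth muscle libraries (SMC), Sox9 is lowest there, and preadipocyte library 3 stands above its fellows for Sox6.

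The Sox family ran from genes far highest in smooth muscle libraries to 1 that was lowest there. Sox10, the factor of neural crest and Schwann cells, lies on chromosome 15 at 79154908 to 79165240. It was at 9.90, 9.55 and 10.6 CPM in smooth muscle, 0.89, 0.975 and 0.634 in intermediate cells, 1.19, 0.664 and 0.222 in preadipocytes and 0, 0 and 0.201 in progenitors. Smooth muscle held 440 counts and progenitors 3, a ratio of 141.4 with a 95% counting interval of 48.08 to 688.4. Against intermediate cells the difference was a log2 fold change of 3.57 ± 0.46 (adjusted p = 2.07e-05).

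Sox2, a stem cell and glial factor, had no count in any progenitor or preadipocyte library, 0.979, 0.225 and 0.453 CPM in intermediate cells and 4.13, 2.34 and 3.59 in smooth muscle. Taking a floor of 3 counts over each group, smooth muscle was at least 46.9-fold higher than progenitors and at least 58.7-fold higher than preadipocytes. Foxd3, the forkhead gene of neural crest, was at 4.13, 2.47 and 4.43 CPM in smooth muscle, 0.267, 0.75 and 0.544 in intermediate cells, 0.323, 0.543 and 0.0556 in preadipocytes and 0.0775, 0 and 0 in progenitors. Its 160 counts in smooth muscle against 1 in progenitors gave a ratio of 154.3, with a 95% counting interval of 27.3 to 6132. All 3 genes were highest in the libraries where most Schwann cell markers were high, and Foxd3 is itself on that list. The part of Schwann cells in these levels was not tested.

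Sox5 and Sox6 act with Sox9 in cartilage. Sox5 was at 18.2, 18.2 and 16.7 CPM in smooth muscle, 5.16, 4.65 and 2.54 in intermediate cells, 3.93, 3.80 and 3.11 in preadipocytes and 2.33, 2.12 and 1.87 in progenitors. Smooth muscle was far above the rest, with a log2 fold change of 3.08 ± 0.25 (adjusted p = 8.63e-08) against progenitors. An antisense gene, Sox5os1, shares 1330 bases of exon with Sox5, and without knowledge of strand their reads cannot be told apart.

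Sox6 was at 30.9, 31.1 and 38.5 CPM in smooth muscle, 15.3, 11.6 and 58.3 in preadipocytes, 2.05, 3.52 and 2.72 in intermediate cells and 1.71, 1.23 and 2.34 in progenitors. Preadipocyte library 3, the one rich in red blood cell RNA, was the highest of all 12, and Sox6 also acts in red blood cell formation. Preadipocytes exceeded progenitors with a log2 fold change of 4.01 ± 0.52 (adjusted p = 9.43e-06), and without that library with a log2 fold change of 2.93 (adjusted p = 1.95e-09). Smooth muscle exceeded progenitors with a log2 fold change of 4.25 ± 0.53 (adjusted p = 8.53e-06). Klf1, a red blood cell factor, was at 4.31, 7.18 and 219.5 CPM in the preadipocyte libraries and at most 0.634 elsewhere. Its part in the Sox6 level was not tested.

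Sox9, in contrast, was at 48.5, 58.4 and 62.1 CPM in progenitors, 41.3, 51.1 and 48.8 in intermediate cells, 51.7, 53.2 and 39.5 in preadipocytes and 13.2, 15.00 and 20.7 in smooth muscle. The first 3 groups overlapped and smooth muscle lay below all of them, with a log2 fold change of -1.78 ± 0.18 (adjusted p = 1.15e-06) against progenitors and a log2 fold change of -1.56 ± 0.18 (adjusted p = 2.39e-06) against preadipocytes. It was the 1 member lower in smooth muscle than in preadipocytes, and with Foxp2 the 2 lower than in progenitors. With no low-count filter these counts were 4 and 9, and leaving out single libraries gave 1 to 4 and 2 to 8. Of 12 cartilage genes listed as targets of the trio, 4 were higher and 1 lower in smooth muscle than in progenitors, against 30.5% and 23.6% of all genes. Acan, the cartilage proteoglycan, ranged from 48.0 to 57.8 CPM in smooth muscle and from 0.0775 to 8.28 elsewhere.

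Sox12, a SoxC factor, was at 20.9, 20.5 and 19.7 CPM in smooth muscle and 3.33, 6.69 and 5.08 in progenitors, a log2 fold change of 2.01 ± 0.26 (adjusted p = 1.12e-05). Its relatives Sox4 and Sox11 were both higher in smooth muscle than in preadipocytes, Sox4 with a log2 fold change of 1.03 ± 0.18 (adjusted p = 0.000156) and Sox11 with a log2 fold change of 1.56 ± 0.35 (adjusted p = 0.00126), and the Sox11 value moved between 1.21 and 2.09 as single libraries were left out. Of the 4.795 kb of Sox4 exon, 2616 bases are shared with a non-coding gene on the opposite strand, Gm26735. Sox13, of the same group as Sox5, was at 19.9, 21.3 and 18.8 CPM in smooth muscle and 8.14, 6.88 and 3.56 in preadipocytes, a log2 fold change of 1.70 ± 0.28 (adjusted p = 7.48e-05). Sox8, a relative of Sox9 and Sox10, was lowest in preadipocytes at 5.28, 6.22 and 3.78 CPM against 14.2 to 15.0 in progenitors, a log2 fold change of -1.52 ± 0.24 (adjusted p = 5.86e-05).

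Sox7, Sox17 and Sox18 are the endothelial group. Sox7 was at 3.26, 3.28 and 3.01 CPM in progenitors, 12.3, 13.9 and 8.43 in intermediate cells, 5.77, 7.85 and 5.89 in preadipocytes and 2.99, 8.16 and 5.27 in smooth muscle. Intermediate cells were its highest group without overlap, with a log2 fold change of 1.86 ± 0.31 (adjusted p = 0.000481) against progenitors. Its difference between smooth muscle and intermediate cells, a log2 fold change of -1.07 ± 0.30 (adjusted p = 0.013), became -0.78 with an adjusted p of 0.0578 without smooth muscle library 1. Sox17 was at 2.37, 4.83 and 1.67 CPM in preadipocytes and 0.155, 0 and 0.0669 in progenitors, which is 154 counts against 3 and a ratio of 41.1 with a 95% counting interval of 13.8 to 201.3. A transcript on the opposite strand shares 804 bases of exon with Sox17. Sox18 ranged from 1.21 to 4.63 CPM over all libraries (adjusted p of the F test 0.0508). Of 12 endothelial markers, Sox17 and Sox18 among them, 9 were higher and 1 lower in intermediate cells than in progenitors, and 8 higher and 1 lower in preadipocytes than in progenitors, against 14.1% and 13.4% of all genes in the first comparison and 25.1% and 25.9% in the second. In smooth muscle 9 were also higher and 1 lower than in progenitors, against 30.5% and 23.6%. The sum of these markers was 134 to 153 CPM in progenitors, inside the ranges of the other populations. Those were 72.8 to 187 in intermediate cells, 74.2 to 208 in preadipocytes and 90.6 to 197 in smooth muscle. Cdh5, the junction protein of endothelium, was at 0.465, 0.342 and 1.20 CPM in progenitors, 4.72, 6.67 and 2.36 in intermediate cells and 8.95, 2.42 and 1.61 in preadipocytes. The part of endothelial cells in these levels was not tested.

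Lists of other lineage factors, none of them members, were read beside the families. The shares of all genes to set beside them were 25.1% higher and 25.9% lower in preadipocytes against progenitors, 14.1% and 13.4% in intermediate cells against progenitors, 30.5% and 23.6% in smooth muscle against progenitors, 15.7% and 13.1% in smooth muscle against intermediate cells, and 40.7% and 25.9% in smooth muscle against preadipocytes. Of 11 tested factors of heart and lateral mesoderm, 8 were lower and 2 higher in preadipocytes than in progenitors, 9 higher and 0 lower in smooth muscle than in preadipocytes, and 5 higher and 5 lower in smooth muscle than in progenitors. Osr1, a factor of lateral mesoderm, ranged from 170 to 183 CPM in progenitors, 106 to 125 in intermediate cells, 9.28 to 16.2 in preadipocytes and 141 to 168 in smooth muscle. Isl1, of second heart field and sympathetic neurons, ranged from 31.4 to 45.5 CPM in smooth muscle, 5.78 to 10.2 in preadipocytes and 0.3 to 1.96 elsewhere. Of 10 tested neural crest factors, 6 were lower and 1 higher in preadipocytes than in progenitors, and 3 higher and 1 lower in intermediate cells than in progenitors. In smooth muscle 4 of these were higher and 3 lower than in progenitors, 1 higher and 4 lower than in intermediate cells, and 5 higher and 0 lower than in preadipocytes. Tfap2b ranged from 11.7 to 17.6 CPM in smooth muscle and from 0 to 5.12 elsewhere, with preadipocytes next at 1.89 to 5.12. Of 6 tested somite factors, 2 were higher and 0 lower in intermediate cells than in progenitors. Smooth muscle had 4 higher and 1 lower than progenitors, 2 and 2 than intermediate cells, and 4 and 1 than preadipocytes. Preadipocytes had 1 higher and 1 lower than progenitors. Against intermediate cells they had 0 higher and 3 lower, beside 26.0% and 31.1% of all genes. Meox2 ranged from 108 to 119 CPM in intermediate cells, 76.5 to 86.2 in progenitors and 5.62 to 15.9 in the other 2 populations. Pax1 ranged from 5.33 to 9.15 CPM in intermediate cells, 5.34 to 8.51 in smooth muscle and 0.241 to 1.30 in the rest.

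Of 10 tested factors of brown fat fate, 4 were higher and 3 lower in preadipocytes than in progenitors, and 6 higher and 3 lower than in intermediate cells. All genes gave 25.1% and 25.9% in the first comparison and 26.0% and 31.1% in the second, so the lower counts were near the background. Ebf2, a selector of brown fat precursors, ranged from 282 to 326 CPM in progenitors, 217 to 368 in preadipocytes, 72.9 to 90.2 in intermediate cells and 22.8 to 25.4 in smooth muscle. Ucp1, the uncoupling protein of brown fat, ranged from 77.3 to 144 CPM in preadipocytes and from 0.998 to 6.43 elsewhere. Of 8 tested T-box and HMG-box genes outside the name rule, 3 were lower and 1 higher in preadipocytes than in progenitors, near the background of 25.9% and 25.1%. Among them Tcf7l1 ranged from 53.9 to 56.9 CPM in progenitors and 17.8 to 28.3 in preadipocytes.

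The libraries also carried reads over olfactory and vomeronasal receptor genes, and their summed level was taken as an even level of reads. Whether it was even over these genes, or included receptors that such cells do use, was not tested. The level was read from 1149 olfactory and vomeronasal receptor genes, which summed to 39.2 to 329.9 CPM in the progenitor, intermediate and preadipocyte libraries and 744.9 to 1078 in smooth muscle, and was scaled to the exon length of each member. By this measure 63 of the 76 members were at 3 times the even level or more in some population: 56 in progenitors, 50 in intermediate cells, 58 in preadipocytes and 48 in smooth muscle. The smooth muscle peaks lay above it, at 35.3 times for Gata2, 19.5 for Gata3, 15.5 for Gata4, 19.8 for Sox10 and 5.79 for Tbx20. In progenitors Sox10 stood at 1.25 times the even level, Tbx20 at 1.49 and Gata3 at 2.62, and in intermediate cells Gata3 stood at 1.09. When the even level was subtracted from the counts, 53 members could be tested, and 33 were higher and 2 lower in smooth muscle than in progenitors.

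**Figure D5:**
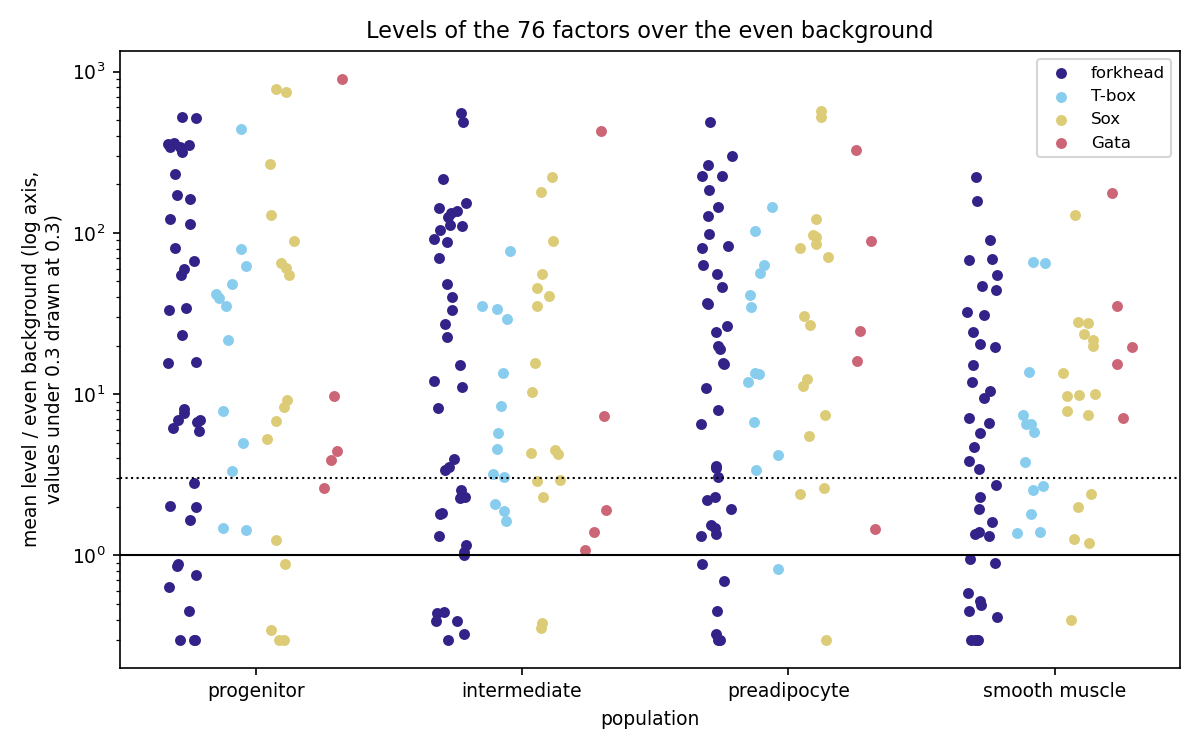
Mean level of the 76 members in each population as a multiple of the even level read from receptor genes, on a log axis, with a point per gene coloured by family and values under 0.3 drawn at 0.3. The solid line marks the even level and the dotted line 3 times it; 48 members lie on or above the dotted line in smooth muscle and 58 in preadipocytes.

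The 20 tested members under 5 CPM had highest means of 0.591 to 4.76 CPM, and 14 of them differed by the F test, a lower share than the 79.8% of all genes. Foxj1, of ciliated cells, was at 4.36, 4.88 and 4.35 CPM in intermediate cells and 1.51 to 3.35 in all other libraries. Tbx6, of paraxial mesoderm, was likewise highest in intermediate cells at 4.004, 4.20 and 3.90 CPM, with a log2 fold change of 1.04 ± 0.29 (adjusted p = 0.017) against progenitors. That call was lost with no low-count filter (0.81, adjusted p = 0.095), without progenitor library 2 (0.74, adjusted p = 0.141) and without any 1 of the intermediate libraries (0.84 to 0.92, adjusted p of 0.0705 to 0.101). Tbx21, of lymphocytes, and Sox30 were not called, with adjusted p of 0.279 and 0.338. Foxn1, Tbx19 and Tbx22 were at or under 1.58 CPM in every library.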

How the data were processed

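Poly(A) RNA of 12 sorted samples was made into libraries with the SMART-Seq v4 kit, per the labels' protocols. The deposited table holds raw read counts per gene, which the authors made with STAR 2.5.2a on mm10 and analysed with DESeq2 1.26.0, per the submitters' processing notes; neither the counting tool nor its strand setting is named there. The authors' normalized and regularised log tables were not used. Genes were filtered with filterByExpr, scaled by TMM and fitted in 1 model of 4 populations with edgeR 4.0.16 (R 4.3.3, quasi-likelihood tests, two-sided, no covariate). P-values were Benjamini-Hochberg adjusted over all 21285 genes tested, which held 99.3% to 99.9% of counts, and called at 0.05. The SE is the one implied by the F statistic. Intervals are exact at 95% and cover counting error only.

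Members and gene lists were chosen with earlier results of these data known. For members with a mean of at least 5 CPM in a population, contrasts were taken from the 3 called ones with the largest absolute log2 fold change. Not all 3 are given, and the largest is often left out. Up to 4 genes per list were named by the smallest p of the F test. Markers, neighbours, a few members under 5 CPM, and contrasts outside this rule for Foxl1, Foxp2 and Tbx18, were named after their values were seen. Exon lengths, coordinates and overlaps came from GENCODE M21 (mm10), promoters from RefSeq (GRCm38.p6). Alternatives were RLE factors, library size alone, DESeq2 1.42.0, limma 3.58.1 (voom), no filter, at least 5 CPM in 3 libraries, a replicate block, subtraction of the even level, the compared populations alone, and leaving out each library. The fit was tested on simulated data. No 2 libraries of a population agreed within counting noise (chi-square per degree of freedom 4.37 to 84.5). A few named genes are not reported here.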

Additional observations from a re-analysis of the deposited data

How the results depend on the processing

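Across the 4 populations 48 members differed, and 33 to 55 did under the other settings. The 33 came from the filter of at least 5 CPM in 3 libraries, which tested fewer members. The 55 came from no low-count filter, which tested more. The 37 members higher in smooth muscle than in progenitors were 30 to 38 when single libraries were left out, and those higher than in preadipocytes were 34 to 38. The 25 members higher in intermediate cells than in progenitors ranged from 19 to 27, the 26 lower in preadipocytes than in intermediate cells from 19 to 29, and preadipocytes against progenitors from 10 to 16 higher and 13 to 17 lower. Small counts moved more. Members lower in intermediate cells than in progenitors were 2, 4 with no filter, and 0 to 3 on leaving out libraries (0 without progenitor library 1). Members lower in smooth muscle than in progenitors were 2, 1 with library size alone, 9 with no filter and 2 to 8 on leaving out libraries, with 5 without progenitor library 2 and 8 without any 1 of the 3 intermediate libraries, which also moved the median of all genes by -0.24 to -0.26. Members higher in preadipocytes than in intermediate cells were 8, and 4 to 9 on leaving out libraries (4 without preadipocyte library 2); those lower were 17 at the 5 CPM filter, where fewer genes were tested. In smooth muscle against intermediate cells, library size alone gave 32 higher and 5 lower, and leaving out libraries gave 15 to 19 higher and 7 to 14 lower (7 without smooth muscle library 1). The 1 member lower in smooth muscle than in preadipocytes became 2 with RLE, DESeq2 or the compared populations alone, 4 with no filter, and 1 to 4 on leaving out libraries, with 4 without progenitor library 2 or any 1 intermediate library and 2 without preadipocyte library 1 or 3 or smooth muscle library 1 or 2. Foxn2 in smooth muscle against intermediate cells went from -0.45 to 0.04 with library size alone. For each of these the cause was not tested unless stated.

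The 37 described members gave 101 called contrasts to check, at most 3 each, with no called contrast for Foxo1. Of the 101, 98 kept direction and call with DESeq2, 97 with RLE, 96 with library size alone and 90 with no filter. Deviations from the population mean correlated with r of -0.163 to 0.207 for same-numbered libraries of different populations, over 0.1 in 6 of 18 pairs. For other-numbered libraries r was -0.262 to 0.288. Deviations of 3 libraries from their own mean are tied together, so this check cannot show whether the numbers pair the samples. With a replicate block 50 members differed among the populations, all 101 contrasts kept their call, and preadipocytes against intermediate cells had 7 higher and 25 lower. Depth limits statements on genes near 3 counts, or 0.175 to 0.256 CPM before TMM scaling.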

Other observations

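Non-coding genes named after members were also counted. Foxd2os, the partner of Foxd2, was at 5.74, 6.15 and 4.62 CPM in progenitors, 18.6, 17.4 and 18.4 in intermediate cells, 3.61, 3.44 and 4.28 in preadipocytes and 1.995, 2.15 and 3.09 in smooth muscle. Its intermediate libraries lay above all others, as those of Foxd2 did, with a log2 fold change of 1.72 over progenitors (adjusted p = 1.93e-05, edgeR). Sox2ot was higher in smooth muscle than in progenitors with a log2 fold change of 1.51 (adjusted p = 0.00691), at 3.14, 2.03 and 2.88 CPM against 0.853, 0.478 and 1.47. Sox5os2 was at 1.28, 1.46 and 1.06 CPM in smooth muscle and at most 0.272 in any other library. No exon overlap with a member was found for Foxd2os, Sox2ot or Sox5os2. Strand use is not known, so reads of members and of opposite-strand genes that do share their exons cannot be told apart.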
